A study of Mus musculus with 38 samples.

Results

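The 5 VPS10 domain receptors *Sorcs1*, *Sorcs2*, *Sorcs3*, *Sorl1* and *Sort1* were followed in cells of the mouse dentate gyrus (DG) that did or did not express an *Arc* reporter. The genes were chosen by their symbols, with no measured value used in the rule, and all 5 were found among the 23420 genes of the count data. RNA had been sequenced from 38 libraries, a dVenus+ and a dVenus- library from each of 19 adult male *Arc*::dVenus mice on a C57BL/6J background. All mice, controls included, carried this transgene, which places dVenus, a fluorescent protein made unstable, under the promoter of *Arc*. The DG was sampled 1 day after training from 12 fear conditioned (FC) mice and from 4 mice that explored the context but received no shock (NS), and 3 home-cage (HC) mice had no training. Each library pooled 10 cells of 1 mouse, collected by aspiration of nucleated patches from the granule cell layer, and the cells were chosen by their fluorescence.

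VPS10 domain receptors are type I membrane proteins whose lumenal propeller domain binds ligands and cargo, and whose short cytoplasmic tail binds adaptors and the retromer complex. They carry cargo between the trans-Golgi network, endosomes and the cell surface, and in neurons this sorting concerns neurotrophins and their receptors, glutamate receptors, neurexins and the amyloid precursor protein. *Sorcs1*, *Sorcs2* and *Sorcs3* form the SorCS subgroup, *Sort1* encodes sortilin, and *Sorl1* encodes SORLA, which has further lipoprotein receptor domains.

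*Sorcs3* and *Sorcs1* lie on the same chromosome, and the sequence before an annotated start of each is shown. These were the members called between dVenus+ and dVenus- cells, and *Sorl1* is shown as a member that was not. In GENCODE vM21 (GRCm38, the mm10 build of the deposited counts) *Sorcs3* is on the plus strand at chr19:48206025-48805505 and *Sorcs1* is on the minus strand at chr19:50143299-50678646. The RefSeq annotation places 1.338 Mb between them, with 0 protein-coding genes and 3 pseudogenes in that interval. *Sorcs2* is at chr5:36017180-36398139 on the minus strand, *Sorl1* at chr9:41964720-42124297 on the minus strand and *Sort1* at chr3:108284082-108361511 on the plus strand. The 250 bases upstream of a RefSeq start (GRCm38.p6) are given for 3 members in the direction of transcription, in lower case. Capitals mark where TGACGTCA (a cyclic AMP response element), its shorter form TGACG, the CCAAT box or the GC box CCGCCC matched on either strand. TGACG overlaps TGACGTCA.
*Sorcs3*, chr19:48205775-48206024, plus strand: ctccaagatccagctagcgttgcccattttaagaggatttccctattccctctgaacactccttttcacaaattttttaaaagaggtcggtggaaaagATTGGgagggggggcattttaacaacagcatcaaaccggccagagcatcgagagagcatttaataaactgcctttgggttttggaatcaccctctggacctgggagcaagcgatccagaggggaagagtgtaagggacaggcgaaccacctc
*Sorcs1*, chr19:50678647-50678896, minus strand: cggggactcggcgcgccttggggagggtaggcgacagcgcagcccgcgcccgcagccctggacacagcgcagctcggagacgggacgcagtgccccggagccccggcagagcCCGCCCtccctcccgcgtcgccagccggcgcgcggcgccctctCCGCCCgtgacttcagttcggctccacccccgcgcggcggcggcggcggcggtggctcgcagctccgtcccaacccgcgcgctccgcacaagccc
*Sorl1*, chr9:42124298-42124547, minus strand: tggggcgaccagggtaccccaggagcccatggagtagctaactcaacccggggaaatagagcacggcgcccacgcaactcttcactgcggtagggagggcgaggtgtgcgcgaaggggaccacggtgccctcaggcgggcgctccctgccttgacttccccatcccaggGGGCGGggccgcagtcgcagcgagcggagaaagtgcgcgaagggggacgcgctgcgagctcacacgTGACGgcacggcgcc
The *Sorcs3* window held a single match, CCAAT on the minus strand at 152 to 148 bases before the start, and its GC content was 48.4%. The *Sorcs1* window was GC-rich at 79.6% and held CCGCCC at 138 to 133 and at 95 to 90 bases before the start used. In the RefSeq annotation the *Sorcs1* gene, on the minus strand, reaches to position 50679129. This window therefore lies inside the annotated gene and not before its outermost start. The first *Sorl1* start, with 69.6% GC, had TGACG at 15 to 11 bases and CCGCCC on the minus strand at 81 to 76 bases before it, and a further annotated *Sorl1* start had no match. Among 32851 RefSeq promoter windows of the same length, 1.55% held TGACGTCA, 17.77% held TGACG, 33.85% held CCAAT and 32.74% held CCGCCC, and their median GC content was 52.4%. A match in these letters is a description of the window and marks no tested binding site. *Sort1* and *Sorcs2* had no entry in the promoter table.

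Counts on genes ran from 1352288 to 18394761 per library with a median of 8013005, and 7037 to 13286 genes had at least 1 count. *Arc* was higher in the dVenus+ library of every one of the 19 mice. In FC it stood at 476.6 to 1540.0 normalised CPM (library counts scaled to a common total) in dVenus+ libraries, whereas the dVenus- libraries of mice 06, 07 and 14 held 1276, 1095 and 2549 *Arc* counts and the remaining FC dVenus- libraries at most 16. The 7 listed granule cell markers had counts in all groups, and their summed level in FC was 348.4 to 2566 CPM in dVenus+ and 1593 to 4144 CPM in dVenus- libraries, with 5 of 7 (*C1ql2*, *Calb1*, *Stxbp6*, *Rfx3* and *Camk2a*) lower in dVenus+ cells by the test used for the receptors. Over all 9709 genes tested in FC, that test called 2.84% lower and 1.5% higher in dVenus+ cells. The 7 listed microglial markers summed to 20.6 to 1328 CPM in FC dVenus+ and 1.12 to 467 CPM in FC dVenus- libraries. Of them 6 were tested, and 3 (*Csf1r*, *C1qa* and *Aif1*) were called higher in dVenus+ cells. The other microglial markers were not called. Their FC medians in dVenus+ and dVenus- libraries were 2.40 and 4.43 CPM for *P2ry12*, 0.621 and 0.452 for *Itgam*, 19.3 and 3.29 for *Cx3cr1* and 24.4 and 3.41 for *C1qb*. In NS and HC none of the granule cell and microglial markers was called, where the test called 0.0489% of 8187 and 0.0% of 7588 genes. The granule cell markers still summed to 624 to 1413 CPM in NS dVenus+ against 1889 to 3213 CPM in NS dVenus- libraries, and to 869 to 1750 against 1661 to 3564 CPM in HC. The microglial markers summed to 78.7 to 1023 CPM in NS dVenus+ against 1.67 to 305 CPM in NS dVenus- libraries, and to 276 to 1030 against 1.93 to 317 CPM in HC. The 5 listed astrocyte markers, none called, summed to 1162 to 1395 CPM in HC dVenus+ against 227 to 484 CPM in HC dVenus- libraries. In FC and NS the astrocyte sums overlapped, at 20.6 to 1549 against 115 to 1690 CPM and at 951 to 2550 against 370 to 2886 CPM. Of the 6 listed interneuron markers 3 were tested, and 1, the GABA-synthesising enzyme *Gad1*, was lower in FC dVenus+ cells (log2 fold change -2.03). *Gad1* was at -1.89 in NS and 1.27 in HC, neither called. The FC medians of *Gad2* were 15.7 CPM in dVenus+ and 8.62 CPM in dVenus- libraries, and those of *Pvalb* 2.08 and 4.19 CPM. Of the 4 listed markers of immature neurons 3 were tested, and 1, the transcription factor *Neurod1*, was lower in FC dVenus+ cells (-2.34). The nuclear RNAs *Malat1* and *Snhg11* were higher in dVenus+ cells, with log2 fold changes of 1.53 and 1.59 in FC and of 1.81 and 4.87 in NS. In HC their values were 2.66 and 1.71, neither called. The part of these differences in the receptor values was not tested. By their sample identifiers the FC mice fall into 3 series (2, 4 and 6 mice), and a further series holds every NS and HC mouse, so for levels between FC and the other mice training and series cannot be told apart.

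*Sorcs3*, a neuronal receptor found at the postsynaptic side, was higher in the dVenus+ than in the dVenus- cells of every fear conditioned mouse. In the 12 FC dVenus+ libraries its lowest level was 32.6, its median 304 and its highest 534 normalised CPM, and in the paired dVenus- libraries the lowest was 0, the median 0.171 and the highest 23.6 CPM. The lowest dVenus+ library, that of mouse 05 with 58 counts, stood above the highest dVenus- library, that of mouse 11 with 383 counts, and 5 of the 12 dVenus- libraries had 0 counts. Thus every dVenus+ library stood above every dVenus- library on normalised CPM, which was the case for 0.0927% of all genes tested. On CPM without scaling factors, however, the dVenus+ library of mouse 05 (11.0) lay below 2 dVenus- libraries (highest 34.7). Every other dVenus+ library was at 132 or more on that scale. The mean was 310.4 ± 156 CPM in dVenus+ and 4.67 ± 8.60 CPM in dVenus- libraries (SD, n = 12), and the log2 fold change was 7.70 (SE 0.759, adjusted p = 1.104e-07, edgeR quasi-likelihood test with the mouse as a block, Benjamini-Hochberg over all genes).

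*Sorcs1*, which sorts neurexin and AMPA receptor cargo, differed in the same direction at a lower level. Its FC dVenus+ libraries had a lowest value of 0, in mouse 07, a median of 18.9 and a highest value of 83.0 CPM, in mouse 04. Of the FC dVenus- libraries 11 had 0 counts, and that of mouse 01 had 19 counts, or 1.51 CPM. *Sorcs1* was therefore higher in dVenus+ cells in 11 mice and at 0 in both libraries of mouse 07. Summed over the mice, 2372 counts stood against 19, a ratio of 172 once each sum is divided by the total counts of its libraries (95% interval 109.7 to 286, counting error only). The log2 fold change was 7.54 (SE 1.23, adjusted p = 0.002442, edgeR quasi-likelihood test without a count filter, Benjamini-Hochberg), a value that depends on the prior count because so many libraries were at 0.
Without mouse 01 the fitted log2 fold change was 10.97, with every remaining dVenus- library at 0.

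**Figure D1:**
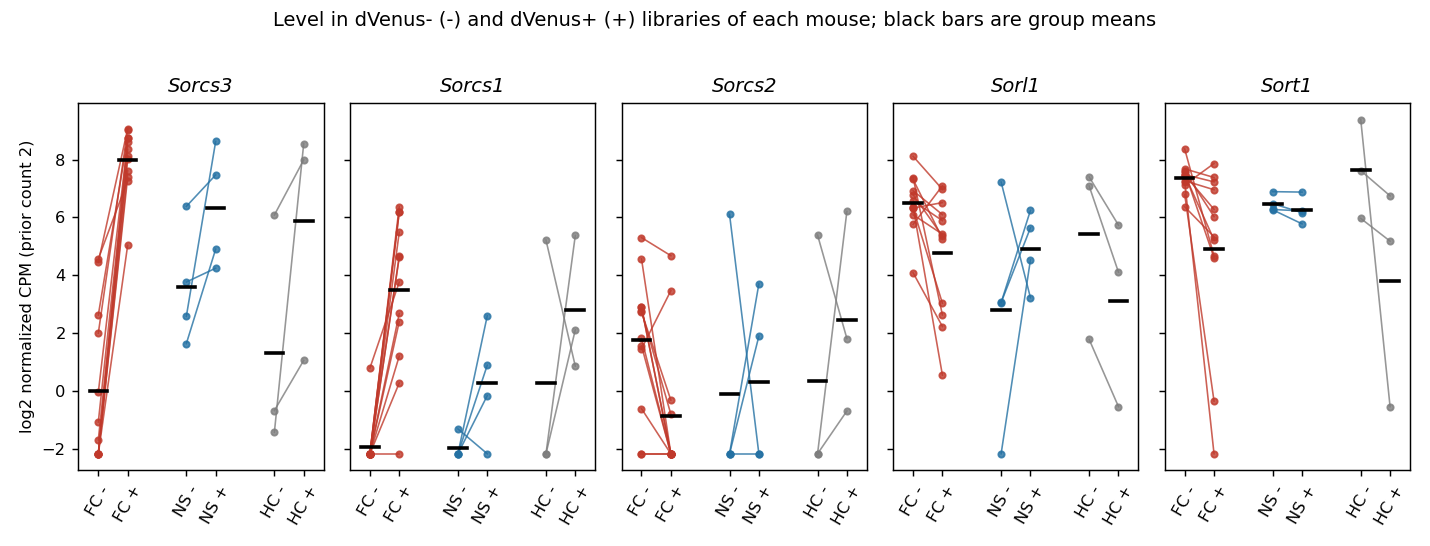
Level of each VPS10 receptor gene, 1 panel per gene, on a log2 axis of normalised CPM (prior count 2), with a line from the dVenus- (-) to the dVenus+ (+) library of each mouse and black bars at the group means, for FC (12 mice), NS (4) and HC (3). All 12 *Sorcs3* lines in FC go up, from a median of 0.171 to a median of 304 CPM, and 11 of the 12 *Sort1* lines in FC go down (12 on CPM without scaling factors).

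*Sorcs3* and *Sorcs1* were the 2 of 5 members called in FC, where a gene was called at an adjusted p under 0.05 and an absolute log2 fold change over 1. A call was made for 4.35% of the 9709 genes that passed the filter on low counts (1.5% higher and 2.84% lower in dVenus+ cells) and for 1.68% of 18089 genes without the filter (0.547% higher and 1.13% lower). In FC, 3 of the 5 members passed that filter of at least 10 counts in at least 12 libraries, and *Sorcs1* and *Sorcs2* did not, so their values come from the fit without it. A level in a pool of 10 cells does not tell fewer expressing cells from less RNA per cell. Within the 3 FC sample series *Sorcs3* was higher in dVenus+ cells in 2 of 2, 4 of 4 and 6 of 6 mice, with log2 fold changes of 7.48 (adjusted p = 0.521), 9.97 (0.001961) and 6.55 (0.009214) in separate edgeR fits with Benjamini-Hochberg adjustment. *Sorcs1* had log2 fold changes of 4.85, 11.09 and 10.88 in fits of the same series without the count filter, none past the threshold. Those fits called 0 of 14649, 3 of 15494 and 4 of 16829 genes. The filtered fits used for *Sorcs3* called 0 of 10187, 12 of 9199 and 15 of 10340 genes. Without the 3 mice whose dVenus- libraries held over 1000 *Arc* counts, an alternative chosen after the data were seen, the log2 fold changes were 7.15 for *Sorcs3* (adjusted p = 2.4e-05) and 7.31 for *Sorcs1* (0.0171) by the same test.

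*Sorcs2*, which binds proneurotrophins and associates with neurotrophin receptors, was sparse and did not pass the test. In FC dVenus+ libraries it was at 0 in 8 of 12 mice and highest in mouse 12 at 25.4 CPM, and in dVenus- libraries its lowest value was 0, its median 4.86 and its highest 39.3 CPM, also in mouse 12. It was lower in dVenus+ cells in 9 mice, higher in 1 and at 0 in both libraries of 2, and the groups overlapped. The log2 fold change was -2.52 (SE 1.04, adjusted p = 0.2585, edgeR without a count filter, Benjamini-Hochberg).

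*Sort1*, whose product sortilin binds proneurotrophins and progranulin, lay in the opposite direction to *Sorcs3* without passing the test. In FC dVenus+ libraries its lowest level was 0, in mouse 03, its median 52.6 and its highest 233 CPM, in mouse 07, and in dVenus- libraries these values were 82.5, 178 and 331 CPM. The dVenus- library was the higher one in 11 of 12 mice, with mouse 07 the exception, and in 12 of 12 when CPM was taken without the scaling factors. The log2 fold change was -1.70 (SE 0.537, adjusted p = 0.06599, edgeR quasi-likelihood test, Benjamini-Hochberg). The call depended on the mice: without mouse 07 it was -1.97 with an adjusted p of 0.04291, without mice 06, 07 and 14 it was -2.39 with an adjusted p of 0.04474 (edgeR, Benjamini-Hochberg), and both pass the threshold.

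*Sorl1*, whose product SORLA sorts the amyloid precursor protein, had a lowest level of 1.24, a median of 41.7 and a highest level of 137 CPM in FC dVenus+ libraries. In FC dVenus- libraries it ran from 16.8 through a median of 88.7 to 277 CPM, so that the groups overlapped over most of their range. It was lower in dVenus+ cells in 10 of 12 mice (11 of 12 on CPM without scaling factors), with a log2 fold change of -1.48 (SE 0.544, adjusted p = 0.1231, edgeR quasi-likelihood test, Benjamini-Hochberg). DESeq2's Wald test called all 5 members in FC, with *Sorcs2* at -3.85 (adjusted p = 0.01061), *Sorl1* at -1.54 (0.01794) and *Sort1* at -1.88 (0.01171), so for these 3 genes the call rests on the tool. DESeq2 made many more calls over all genes too, at 16.8% of the 9709 genes with the filter and 10.8% of the 18089 without it.

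In NS mice *Sorcs3* was higher in the dVenus+ library of each mouse (of 3 in 4 on CPM without scaling factors), not past the threshold. Its dVenus+ libraries stood at 177, 29.8, 18.8 and 396 CPM in mice 18, 19, 20 and 21, and the dVenus- libraries of the same mice at 83.2, 2.89, 13.4 and 5.76 CPM. The groups overlapped, because the dVenus- library of mouse 18 exceeded the dVenus+ libraries of mice 19 and 20. The log2 fold change was 2.47 (SE 1.29, adjusted p = 0.5886, edgeR quasi-likelihood test, Benjamini-Hochberg). *Sorcs1* held 41 counts over the 4 dVenus+ and 1 count over the 4 dVenus- libraries. The depth-corrected ratio was 51.9, with a counting interval of 8.80 to 2098 that leaves out differences between mice. Mouse 20 held 29 of the 41 counts, and the dVenus+ library of mouse 19 had 0. With the mouse as a block the log2 fold change was 5.76 (SE 3.15, adjusted p = 0.6962, edgeR without a count filter, Benjamini-Hochberg).
*Sort1* had dVenus+ values of 117, 74.7, 71.6 and 54.7 CPM against 119, 77.3, 88.9 and 76.7 CPM in dVenus- libraries, close within each mouse, with a log2 fold change of -0.23 (SE 0.999). *Sorl1* was higher in dVenus+ cells in 3 of 4 mice, at 23.0, 49.7, 75.7 and 9.11 CPM against 0, 8.13, 8.09 and 149 CPM. *Sorcs2* was detected in the dVenus+ libraries of mice 18 and 19 at 3.503 and 12.8 CPM and in the dVenus- library of mouse 21 at 68.9 CPM, and was at 0 in the other NS libraries.
None of the 5 members was called in NS, 0 of 5 also had an unadjusted p under 0.05, and DESeq2 called 0 of 5, where edgeR called 0.0489% of 8187 genes with the count filter and 0.00689% of 14508 without it. Over these genes 710 and 720 had an unadjusted p under 0.05, and DESeq2 called 8.13% and 4.58%. Of the 5 members 3 passed the NS filter.

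In HC mice *Sorcs3* varied widely from mouse to mouse. Its dVenus+ libraries stood at 375, 1.86 and 254 CPM in mice 15, 16 and 17, and its dVenus- libraries at 0.148, 0.403 and 67.6 CPM. Each mouse was higher in dVenus+ cells, but mouse 16 had 4 counts and 2 counts in its libraries, and the log2 fold change of 4.60 had an SE of 2.43 (adjusted p = 0.72, edgeR quasi-likelihood test, Benjamini-Hochberg). *Sorcs1* was at 4.11, 41.4 and 1.59 CPM in dVenus+ and at 0, 0 and 37.1 CPM in dVenus- libraries, so mouse 17 went against the other 2. *Sorcs2* was at 3.29, 73.9 and 0.398 CPM in dVenus+ libraries and was detected in the dVenus- library of mouse 15 at 41.8 CPM.
*Sorl1* and *Sort1* were lower in the dVenus+ library of each HC mouse. *Sorl1* stood at 17.0, 0.465 and 53.0 CPM against 136, 3.22 and 169 CPM, with a log2 fold change of -2.47 (SE 1.61). *Sort1* stood at 107, 0.465 and 36.1 CPM against 196, 668 and 62.4 CPM, with a log2 fold change of -2.42 (SE 1.59), and both had an adjusted p of 0.7363 (edgeR, Benjamini-Hochberg).
All 5 members passed the HC filter and 0 were called, with 0 at an unadjusted p under 0.05 and 0 called by DESeq2. Of 7588 genes 0.0% were called by edgeR, 532 had an unadjusted p under 0.05, and DESeq2 called 8.24%. A direction shared by every mouse is common with 3 mice, at 17.5% of genes higher and 12.3% lower in all 3 in HC and 9.5% and 7.66% in all 4 in NS, against 0.536% and 1.09% in all 12 in FC.

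**Figure D2:**
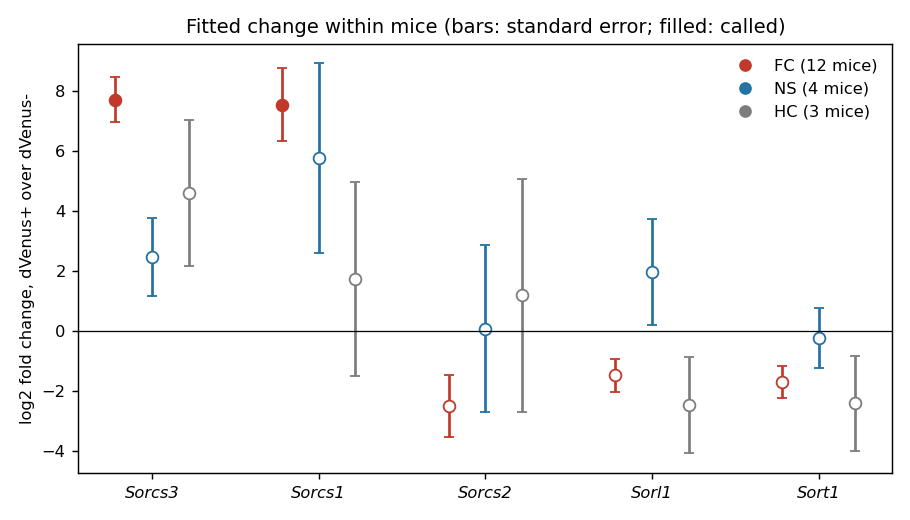
Fitted log2 fold change of dVenus+ over dVenus- cells for each VPS10 receptor gene in FC (12 mice), NS (4) and HC (3), with bars of 1 SE and filled circles for called genes. *Sorcs3* lies above 0 in each, at 7.70 in FC, 2.47 in NS and 4.60 in HC, and only *Sorcs3* and *Sorcs1* in FC are filled.

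Whether the dVenus difference itself differed between FC, NS and HC mice was tested as an interaction. All FC mice come from other sample series than the NS and HC mice, so in the interactions with FC the shock or training and the series cannot be told apart. For *Sorcs3* the difference in FC exceeded that in NS by 5.13 on the log2 scale (SE 1.65, unadjusted p = 0.003816, adjusted p = 0.4965, edgeR interaction term, Benjamini-Hochberg) and that in HC by 2.91 (adjusted p = 0.7529), and the value against HC turned to -2.26 without mouse 17. For *Sorl1* the FC difference minus the NS difference was -3.66 (SE 1.54, adjusted p = 0.5876, edgeR, Benjamini-Hochberg). None of the 5 members was called in these 2 interactions or in NS against HC, and edgeR called 0.0% of 14075 genes in each. At an unadjusted p under 0.05 there were 2 members in FC against NS (*Sorcs3* and *Sorl1*), 0 in FC against HC and 1 in NS against HC, and DESeq2 called 3, 2 and 1 members. Of the 14075 genes, 1152, 1304 and 968 had an unadjusted p under 0.05 in these interactions, and DESeq2 called 8.47%, 11.2% and 9.51%. The median over all genes in these fits was -0.43 for FC against NS and -0.58 for FC against HC, and -0.26 and -0.30 with DESeq2's size factors, and the member values stood on the same side of 0 with either scaling.

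With the 7 NS and HC mice together, *Sorcs3* was higher in dVenus+ cells in 7 of 7 mice (6 on CPM without scaling factors) with a log2 fold change of 2.94 (SE 1.10, adjusted p = 0.1911) and *Sort1* lower in 7 of 7 (likewise 6) with a log2 fold change of -1.13 (adjusted p = 0.5008, edgeR, Benjamini-Hochberg). None of the members was called there, against 0.757% of 7529 genes with the filter and 0.0512% without it, although *Sorcs3* had an unadjusted p under 0.05, as did 1229 of the 7529 genes, and DESeq2 called 3 members (*Sorcs3*, *Sorcs1* and *Sorcs2*). DESeq2 called 14.1% of genes there with the filter and 9.98% without it. Over all 19 mice, which include the FC mice above and are no separate evidence, *Sorcs3* was higher in 19 of 19 mice (18 on CPM without scaling factors) at 6.30 (SE 0.768, adjusted p = 5.108e-07) and *Sorcs1* higher in 16 and lower in 2 at 6.41 (SE 1.16, adjusted p = 0.001174, edgeR, Benjamini-Hochberg). These were the 2 of 5 members called, against 6.06% of 8885 genes with the filter and 2.1% without it. *Sort1* was lower in 18 of 19 mice at -1.36 (SE 0.462, adjusted p = 0.06615, edgeR, Benjamini-Hochberg) and was not called, and without mouse 18 the adjusted p was 0.04627 at -1.52, past the threshold. DESeq2 called 4 members over the 19 mice, *Sorcs2* and *Sort1* besides these 2, and 20.2% of genes with the filter and 13.0% without it. Between NS and HC, 0 of 5 members were called in dVenus+ cells (0.0% of 8706 genes) or in dVenus- cells (0.0% of 8547 genes) by edgeR or by DESeq2, and 0 and 1 members (*Sorcs1*) had an unadjusted p under 0.05. In dVenus+ cells 773 of the 8706 genes had such a p and DESeq2 called 1.26%. In dVenus- cells the counts were 756 of 8547 genes and 1357 of 13730 without the filter, and DESeq2 called 1.68% and 1.95%.

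Within the family, the receptor that held most of the summed level in FC was *Sorcs3* in most dVenus+ and *Sort1* in most dVenus- libraries. Divided by exon length, *Sorcs3* made up 66.1 ± 16.2% of the summed level of the 5 genes in FC dVenus+ libraries and 1.83 ± 3.46% in FC dVenus- libraries (SD, n = 12). *Sort1* made up 15.6 ± 12.8% and 67.6 ± 10.4%. *Sorl1* held 12.0% and 27.8%, *Sorcs1* 5.49% and 0.0466%, and *Sorcs2* 0.783% and 2.71%. The 5 shares of a library make up the whole, so a higher share of 1 gene lowers those of the others even at an unchanged level. The level of *Sort1* itself was not called in FC. *Sorcs3* had the largest share in 11 of 12 FC dVenus+ libraries, with *Sorl1* leading in mouse 05, and *Sort1* in 11 of 12 FC dVenus- libraries, with *Sorl1* leading in mouse 06. In NS the lead in dVenus+ libraries was split, 2 with *Sorcs3* and 2 with *Sort1*, and *Sort1* led both libraries of mice 19 and 20. In the NS dVenus- libraries *Sort1* led 3 and *Sorl1* that of mouse 21. In HC *Sorcs3* led 2 dVenus+ libraries and *Sorcs2* that of mouse 16, and *Sort1* led 2 dVenus- libraries and *Sorl1* that of mouse 17. *Sorcs3* and *Sorcs1* jointly held a larger share in the dVenus+ library of 12 of 12 FC, 4 of 4 NS and 3 of 3 HC mice. They were paired because both were called in FC, so the FC count is no separate evidence. The *Sorcs1* share alone was lower in the dVenus+ library of HC mouse 17 (0.415% against 11.9%) and NS mouse 19 (0% against 0.188%). In the dVenus+ library of HC mouse 16, *Sorcs1* held 35.9% and *Sorcs3* 1.91%. The mean *Sorcs3* share in NS was 44.9% and 15.5%, and in HC 52.2% and 8.58%, of dVenus+ and dVenus- libraries.

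**Figure D3:**
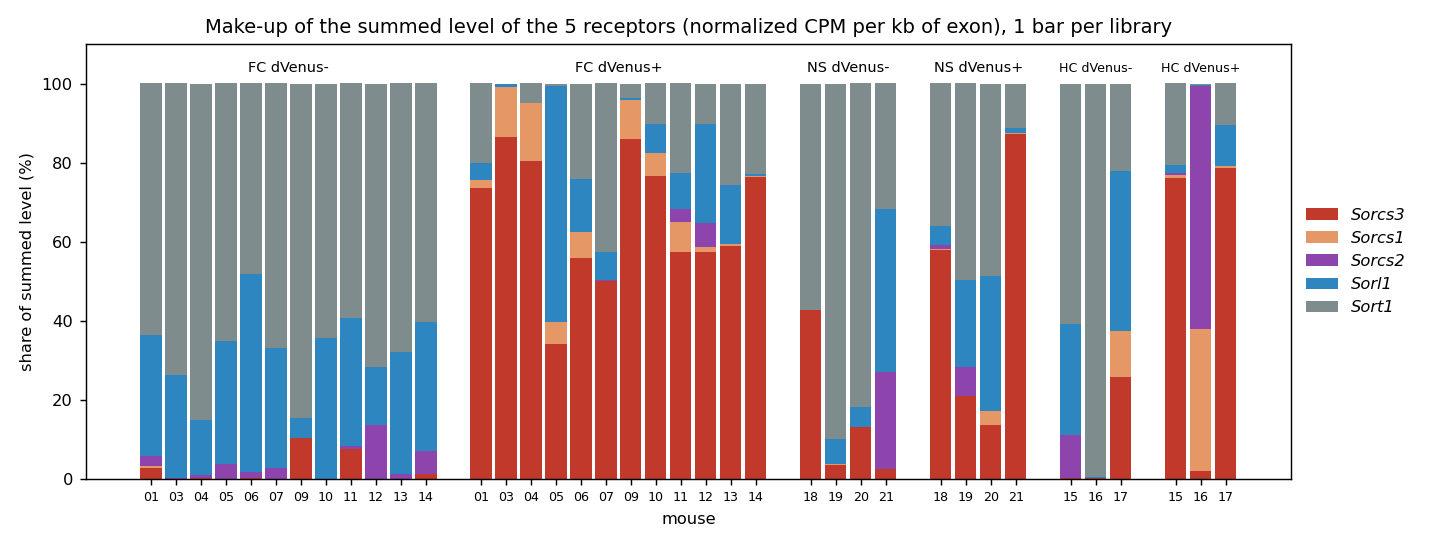
Share of each VPS10 receptor gene in the summed normalised CPM per kb of the 5 genes, in percent, as stacked bars for each of the 38 libraries, grouped by training and reporter. *Sorcs3* fills the largest part of 11 of 12 FC dVenus+ bars and *Sort1* of 11 of 12 FC dVenus- bars.

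On the scale of normalised CPM per kb, FC dVenus+ libraries had *Sorcs3* first at 43.5 ± 21.9, apart from *Sort1* at 10.4 by more than the larger SD, followed by *Sorl1* at 4.58, *Sorcs1* at 3.47 and *Sorcs2* at 0.352 CPM per kb. *Sort1*, *Sorl1* and *Sorcs1* did not stand apart from the next gene in this order. FC dVenus- libraries had *Sort1* first at 23.1 ± 8.03, apart from *Sorl1* at 9.64 ± 5.96, which in turn was apart from *Sorcs2* at 0.940, *Sorcs3* at 0.656 and *Sorcs1* at 0.0149 CPM per kb (SD, n = 12). Across the 6 groups of mice and reporter states, the only neighbours in the order of a gene's mean CPM that were further apart than the larger SD were the FC and NS dVenus- libraries for *Sort1*, at 175 and 90.4 CPM, and these come from different sample series.

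The ligands, cargo and sorting machinery of these receptors were read from 5 lists, and 2 of their 43 tested members (4.65%) were called in FC, a share near the 4.35% of all genes tested. Of 8 neurotrophins and neurotrophin receptors 4 passed the count filter, and 1, *Bdnf*, which encodes the neurotrophin BDNF, was called. *Bdnf* stood at 510.6 ± 204 CPM in dVenus+ and 95.03 ± 48.5 CPM in dVenus- libraries (SD, n = 12), higher in 12 of 12 mice, with a log2 fold change of 2.49 (SE 0.334, adjusted p = 5.26e-05, edgeR quasi-likelihood test, Benjamini-Hochberg). Within the series of 2 and 4 mice the *Bdnf* call was lost (3.11 and 1.96, adjusted p = 0.521 and 0.36, edgeR, Benjamini-Hochberg). The TrkC receptor *Ntrk3* had a log2 fold change of 0.30 and its ligand *Ntf3* one of -1.10, neither called by edgeR, whereas DESeq2 called *Ntf3* at -3.89 (adjusted p = 0.01413). The median of the 4 tested genes was 0.20 beside -0.11 for all genes tested.
Of 9 other ligands, 5 were tested and 0 called, with *Lpl* (lipoprotein lipase) at -1.27, *Apoe* (apolipoprotein E) at -0.86 and *Psap* (prosaposin) at -0.21 as the log2 fold changes of smallest p and a median of -0.21. Unadjusted, 0 of these 5 had a p under 0.05.
All 10 synaptic cargo genes reported here were tested, 1 was called, higher in dVenus+ cells, and the median was -0.53. *Nrxn3*, a presynaptic neurexin, stood at 219 ± 190 CPM in dVenus+ and 37.5 ± 32.5 CPM in dVenus- libraries, higher in 12 of 12 mice (log2 fold change 2.74, SE 0.496, adjusted p = 0.001346, edgeR, Benjamini-Hochberg). Within single series *Nrxn3* was not called, at 1.93, 3.36 and 2.48 in the series of 2, 4 and 6 mice (adjusted p = 0.6457, 0.2704 and 0.1058, edgeR, Benjamini-Hochberg). The AMPA receptor subunit *Gria2* had a log2 fold change of -0.85 (adjusted p = 0.07711, edgeR, Benjamini-Hochberg), was lower in 10 of 12 mice and passed the threshold without mouse 09 (-1.01, adjusted p = 0.03343, edgeR, Benjamini-Hochberg). A further subunit, *Gria4*, stood at 41.2 ± 39.2 CPM in dVenus+ and 21.9 ± 61.3 CPM in dVenus- libraries and was higher in 9 of 12 mice, with a log2 fold change of 2.98 (SE 1.02, adjusted p = 0.09652, edgeR, Benjamini-Hochberg). *Gria4* passed the threshold without mouse 14 (3.44, adjusted p = 0.04975, edgeR, Benjamini-Hochberg) and with DESeq2 (3.81, adjusted p = 0.001326).
Of 15 retromer and adaptor genes, all tested, 0 were called and the median was 0.16. The retromer subunits *Vps35* and *Vps26a* had log2 fold changes of 0.96 each (unadjusted p = 0.0434 for *Vps35*) and the sorting nexin *Snx2* one of -0.94. Of 9 processing proteases, all tested, 0 were called and the median was 0.14, with *Furin* (a proprotein convertase) at 1.13 and the gamma-secretase subunits *Aph1b* and *Ncstn* at 1.17 and 0.94. In NS and HC 0 genes of the 5 lists were called.

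**Figure D4:**
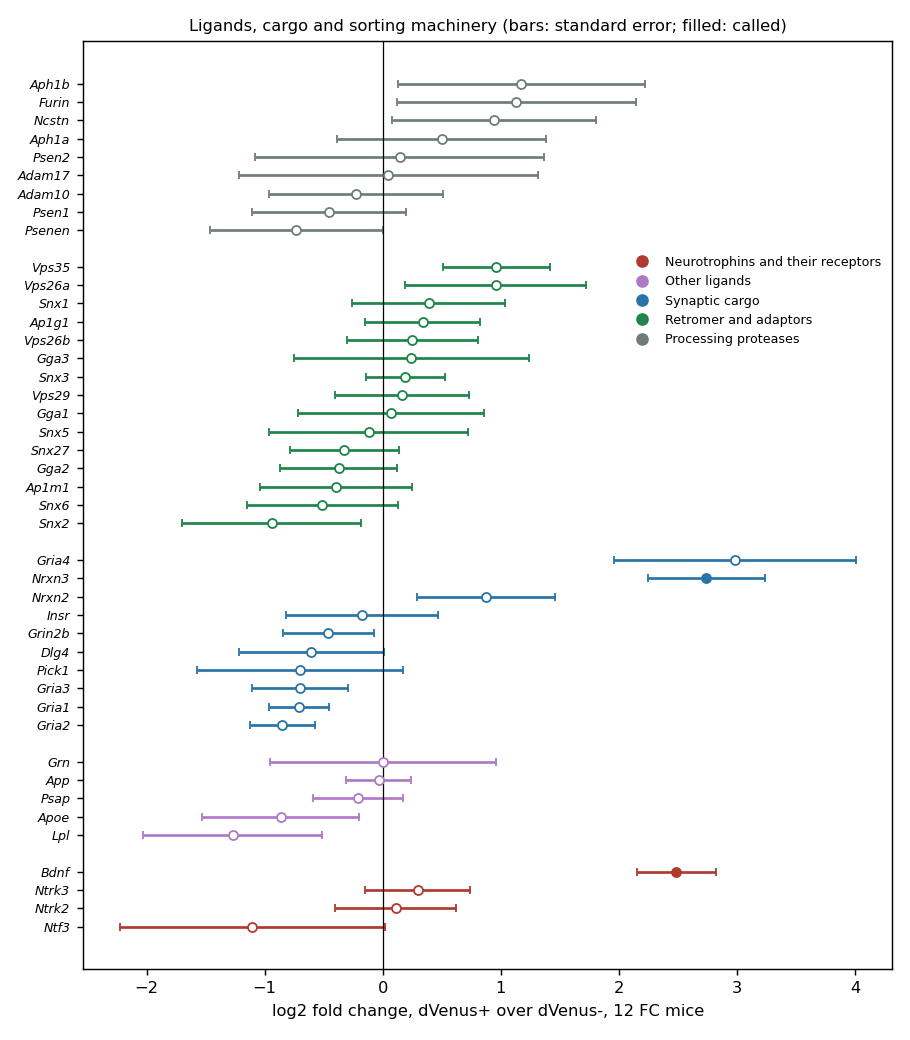
Log2 fold change of dVenus+ over dVenus- cells in the 12 FC mice for the tested genes of the 5 partner lists, 1 circle per gene with bars of 1 SE, coloured by list and filled where called. *Bdnf* (2.49) and *Nrxn3* (2.74) are the filled circles, both above 0.

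The annotated genes next to *Sorcs3* and *Sorcs1* were examined with the same fit. Of the 5 before *Sorcs3*, *Gsto1*, a glutathione transferase, was the one tested, at 26.6 ± 18.3 CPM in FC dVenus+ and 25.7 ± 26.2 CPM in FC dVenus- libraries (log2 fold change 0.76, SE 0.861, adjusted p = 0.7198, edgeR, Benjamini-Hochberg). *Gsto2* and *Itprip* were below the filter, with at most 105 and 46 counts in any library. *Ins1*, beyond *Sorcs1*, had 0 counts. *Gm30021*, *Cfap58*, *Gm6975*, *Siah1-ps1*, *Rpl13a-ps1*, *Gm26629*, *Gm25644*, *Rpl31-ps18* and *Gm4115* were not in the count files and are not analysed here. *Psapl1*, within *Sorcs2*, was the gene of the count files that overlapped a member.

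Over the 38 libraries the genes whose log2 CPM followed *Sorcs3* most closely among 11262 genes were *Nptx2* (Pearson r = 0.783), *Penk* (0.761), *Mapk4* (0.742), *Uchl1* (0.713) and *Rgs2* (0.698), and *Arc* came next at 0.697. For *Sorcs1* they were *Svil* (0.746), *Lmbrd2* (0.688), *Penk* (0.667), *Mapk4* (0.645) and *Sorcs3* (0.644). *Nptx2* encodes a secreted pentraxin and *Penk* the enkephalin precursor. The genes nearest to *Sorcs2* were *Aldh5a1* (0.604), *Fam57b* (0.595) and *Kcnb2* (0.578), those nearest to *Sorl1* were *Slit1* (0.75), *Cops3* (0.71) and *Gphn* (0.70), and those nearest to *Sort1* were *Rogdi* (0.845), *Abhd12* (0.778) and *Kctd4* (0.754). Between members, *Sorcs1* and *Sort1* had r = -0.608 and *Sorcs2* and *Sorcs3* r = -0.424. These values describe libraries that share the dVenus split, the mice and the scaling.

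**Figure D5:**
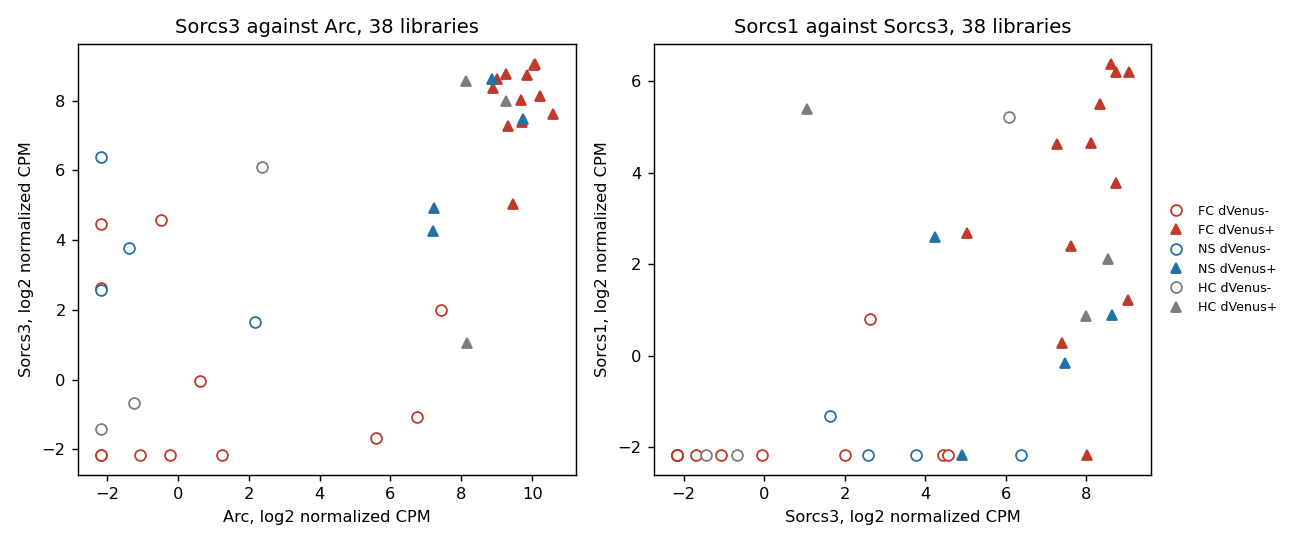
*Sorcs3* against *Arc* (left) and *Sorcs1* against *Sorcs3* (right) in the 38 libraries, on log2 axes of normalised CPM (prior count 2), coloured by training, with triangles for dVenus+ and open circles for dVenus-. The FC dVenus+ triangles lie at 476.6 to 1540.0 CPM of *Arc* and 32.6 to 534 CPM of *Sorcs3*, and a row of libraries at the bottom of the right panel has 0 *Sorcs1* counts.

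Within the 12 FC dVenus+ libraries alone, the level of *Arc* and those of the receptors were compared in 15 pairs, and no pair passed after Benjamini-Hochberg adjustment. *Arc* and *Sorcs3* had r = 0.0882 (permutation p = 0.795, adjusted 0.854) and rho = 0.105 (permutation p = 0.749, adjusted 0.922), and r was 0.269 without the 2 libraries furthest from the median *Arc* level. *Arc* and *Sorcs1* had r = -0.238 (permutation p = 0.459, adjusted 0.836) and rho = -0.210 (permutation p = 0.516, adjusted 0.722). The pair with the smallest p was *Sorcs3* and *Sorl1*, at r = -0.566 (permutation p = 0.050, adjusted 0.722) and rho = -0.643 (permutation p = 0.0281, adjusted 0.339). Without the 2 libraries furthest from the median of *Sorcs3* that r was -0.711. This value and the next use part of the same libraries, for a pair picked by its p, and are no separate evidence. Within the sample series of 6 mice the r of *Sorcs3* and *Sorl1* was -0.885 (exact permutation p = 0.0375, unadjusted). *Arc* and *Sorcs3* had r = 0.344 within that series (exact permutation p = 0.522). In NS, the dVenus- library of mouse 18 held 83.2 CPM of *Sorcs3* and 0 counts of *Arc*.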

How the data were processed

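Per the submitters' processing notes, reads were demultiplexed with bcl2fastq, aligned to mm10 with TopHat2 2.0.13 and counted per gene with HTSeq 0.6.0, and the authors deposited whole-number counts for each library. Entries that name no gene (5 per library) were left out of library sizes, and reads outside genes made up 16.4 to 59.7% of a library. Strand use is not given in the sources used here. The authors' filtered count table of 11802 genes served only as an alternative.

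Groups were taken from the sample titles, since in 10 NS and HC libraries the description names a different library than the title. Replicates are separate mice. Both libraries of a mouse come from the same animal, so the mouse was a block in each within-mouse comparison. Tests were two-sided. Counts were fitted with edgeR 4.0.16 (R 4.3.3, TMM scaling, quasi-likelihood F test with the newer dispersion method) over all genes with at least 10 counts in as many libraries as the comparison has mice (3 for the interactions and for NS against HC), and members below the filter are reported from a fit without it. SE is the log2 fold change divided by the square root of F. A gene was called at a Benjamini-Hochberg adjusted p under 0.05 and an absolute log2 fold change over 1, and interactions by the adjusted p alone. DESeq2 1.42.0 was an alternative, beside other scalings, filters, the fit without the mouse block, separate fits within sample series and fits that left out 1 mouse. Normalised CPM used 1 set of TMM factors over the 38 libraries. These ran from 0.306 (HC dVenus+, mouse 16) to 1.835 (FC dVenus-, mouse 01), and from 0.337 to 1.66 in FC dVenus+ libraries. Levels per kb used GENCODE vM21 exon unions, whereas the authors counted on NCBI transcripts. Permutation tests used 100000 resamples. The FC, NS and HC fits were also run on simulated counts of genes that passed the filter, drawn without differences between mice. That run covered neither the fits without the filter nor the interactions.

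The receptors, partner lists and markers were chosen with earlier results of these data known. The text names the 5 receptors, *Arc*, the called genes of each partner list (at least 3 per list, by p), the 3 genes most like each receptor (5 for *Sorcs3* and *Sorcs1*) and the 5 annotated genes on each side of *Sorcs3* and *Sorcs1*, beside the called cell type and nuclear RNA markers. *Gad2* and *Pvalb* are named beside *Gad1*, and the other microglial markers beside the called ones, though they were not called. Intervals of counts cover counting error only. A gene of the cargo list is not reported here.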

Additional observations from a re-analysis of the deposited data

Results flagged for a closer look

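All 4 values that stood apart came from the 4 NS dVenus- libraries. The rule, on gap over range, was applied to 10 sets of 4 libraries (the 5 receptors in NS dVenus+ and NS dVenus- cells). By chance it flags about 1 in 20 sets only where values are normally distributed. It was applied to untransformed CPM, so its chance rate here is not known. In a set with 3 libraries at 0, as for *Sorcs1* and *Sorcs2*, any count in the other library stands apart, so that rate does not apply to them. *Sorcs3* was at 83.2 CPM in mouse 18, whereas the other 3 libraries held 2.89 to 13.4 CPM. *Sorcs1* was at 0.181 CPM in mouse 19, which is 1 count, and at 0 in the others. *Sorcs2* was at 68.9 CPM in mouse 21, from 861 counts, and at 0 in the others. *Sorl1* was at 149 CPM in the same mouse 21 library, from 1866 counts, and at 0 to 8.13 CPM in the others. No explanation was tested.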

How the results depend on the processing

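*Sorcs3* and *Sorcs1* kept their direction and their call in FC under the other scalings, filters, quasi-likelihood method, gene set and pairing tried and with each mouse left out. Separate fits in single series have few mice: the call of *Sorcs3* was lost in the 2-mouse series (log2 fold change 7.48), and that of *Sorcs1* in the 2-, 4- and 6-mouse series (4.85, 11.09 and 10.88). DESeq2 called *Sorcs2* (-3.85), *Sorl1* (-1.54) and *Sort1* (-1.88) in FC, and *Sort1* was also called without mice 06, 07 and 14 (-2.39) and ran from -1.97 to -1.45 with each mouse left out. Within series *Nrxn3* lost its call in each (1.93, 3.36 and 2.48) and *Bdnf* in those of 2 and 4 mice (3.11 and 1.96), and DESeq2 called *Ntf3* (-3.89). The cause of these changes was not tested.

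The pairing came from the animal, so the replicate block was used throughout. Without the mouse block, the direction turned for *Sorcs2* (-2.39) and *Sorl1* (-0.09) in NS, *Sorcs1* in HC (-0.02) and *Sorcs2* in NS and HC together (-1.11), none of them called with or without it, and the number of genes called rose to 13 in NS and 139 in NS and HC together. The block changed no other call of a receptor. *Sorcs2* in NS was also -0.15 when genes needed 10 counts in 3 libraries and -0.10 over the genes of the authors' table. Within series *Ntf3* turned to 0.18 and 0.23 (2 and 4 mice), *Ntrk3* to -0.29 (2 mice), *Snx2* to 0.52 and *Furin* to -1.48 (4 mice) and *Apoe* to 0.88 (6 mice), and *Psap* was 0.16 without mice 03 and 05.

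With each mouse left out, values that turned ran from -2.32 to 7.58 for *Sorcs2* in NS, from -1.39 to 9.20 for *Sorcs1* and from -2.94 to 0.89 for *Sorcs2* in HC, and from -1.22 to 2.88 for *Sorcs2* and -1.17 to 0.60 for *Sorl1* in NS and HC together. In the interaction of FC with NS *Sorcs1* ran from -0.32 to 4.91, and in that with HC *Sorcs3* ran from -2.26 to 5.70, *Sorcs1* from -2.49 to 9.14, *Sorcs2* from -13.17 to 0.56 and *Sort1* from -0.88 to 2.01. None of these was called.

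The number of genes called in FC (422) was 1635 with DESeq2, 137 with the older quasi-likelihood method, 0, 12 and 15 within the series of 2, 4 and 6 mice, 277 without mice 03 and 05 and 154 without mice 06, 07 and 14. In NS (4) it was 1 without the count filter, 11 with DESeq2's size factors, 666 with DESeq2, 0 with the older method, 2 over the authors' genes and 0 to 2 with a mouse left out. In HC (0) it was 625 with DESeq2 and 2 with the older method. In NS and HC together (57) it was 8 without the filter, 36 with DESeq2's size factors, 1065 with DESeq2, 2 with the older method, 7 with 10 counts in 3 libraries and 4 to 45 with a mouse left out. Over all 19 mice (538) it was 1795 with DESeq2 and 153 with the older method. DESeq2 called 1192, 1583 and 1339 genes in the interactions of FC with NS, FC with HC and NS with HC, and 110 and 144 genes between NS and HC in dVenus+ and dVenus- cells. For these 5 comparisons edgeR called 0 genes, 1 with the older method in the interaction of NS with HC, and with a mouse left out 0 to 1 for FC with NS, 0 to 2 for NS with HC and 0 to 8 between NS and HC in dVenus- cells. *Sorcs1* and *Sorcs2* had 0 counts in many libraries, and the part of depth in this was not tested.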
